A study of Mus musculus with 7 samples.

Results

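The 10 genes described here are markers of liver sinusoidal endothelial cells, the fenestrated cells that line the liver's capillaries: Stab1, Stab2, Lyve1, Clec4g, Kdr, Tek, Eng, Cdh5, Pecam1 and Vwf. They were chosen by name, as the genes whose probes carried exactly these symbols in the platform annotation. All 10 of 10 were found, on 11 of the 23574 probes of the array (2 for Stab2 and 1 for each other gene), among 22218 features of which 16468 were named genes. Liver RNA was measured in 7 mice, 4 wild-type (WT) littermates (1 female and 3 males) and 3 mice transgenic for Zfp90, which encodes a zinc finger protein (ZFP90 tg, 1 female and 2 males). The animal's RNA carried Cy5, and the reference on every array was Cy3-labelled RNA pooled from 4 WT mice of both sexes. The age, strain and diet of the mice, the transgene's promoter, the line it came from and whether the pooled livers were those of the 4 WT animals on the arrays are not given in the sources used here. All values below are log2 ratios of an animal to the pool, so 0 is a ratio of 1 and a difference of 1 is a doubling.

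Sinusoidal endothelial cells filter the blood that reaches the hepatocytes. Their open pores and lack of a continuous basement membrane let lipoproteins and solutes through, and their scavenger receptors take up waste molecules such as hyaluronan, modified lipoproteins and immune complexes. Stab1 and Stab2 (stabilins) are large scavenger receptors, Lyve1 is a hyaluronan receptor shared with lymphatic vessels, and Clec4g (LSECtin) is a C-type lectin. Kdr (VEGFR2), Tek (the angiopoietin receptor Tie2) and Eng (endoglin, a co-receptor for BMP9) carry growth factor signals in endothelium generally. Cdh5 (VE-cadherin) and Pecam1 (CD31) sit at endothelial cell junctions, and Vwf (von Willebrand factor) is the clotting protein of larger vessels, sparse in healthy sinusoids. Stab1 and Lyve1 are also known in macrophages, and Pecam1 and Vwf in platelets and megakaryocytes.

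The promoters of 3 of these genes are shown because of how the genes varied across the animals, as described below. Stab1 and Clec4g had a Pearson r of 0.700 with each other over 7 arrays. Eng had an r of -0.199 with Stab1 and 0.418 with Clec4g. Endothelial genes are widely controlled by ETS factors, whose sites hold the core GGAA. The table of RefSeq promoters (GRCm38.p6) held 6 of the 10 genes (Stab1, Stab2, Clec4g, Kdr, Tek and Eng). Each window below is the 200 bases before the gene's outermost annotated 5′ end, printed 5′ to 3′ on the gene's strand, and capitals mark a searched motif. The windows are chr14:31168652-31168851 on the minus strand for Stab1, chr8:3720696-3720895 on the minus strand for Clec4g and chr2:32646395-32646594 on the plus strand for Eng.
Stab1: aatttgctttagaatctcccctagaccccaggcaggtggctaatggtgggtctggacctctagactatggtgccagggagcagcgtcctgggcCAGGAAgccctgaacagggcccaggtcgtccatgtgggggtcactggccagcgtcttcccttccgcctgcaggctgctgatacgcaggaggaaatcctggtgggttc
Clec4g: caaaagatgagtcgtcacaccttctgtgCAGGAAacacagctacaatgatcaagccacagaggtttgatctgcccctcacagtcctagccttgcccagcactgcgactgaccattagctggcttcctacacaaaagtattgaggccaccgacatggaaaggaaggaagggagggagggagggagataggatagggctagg
Eng: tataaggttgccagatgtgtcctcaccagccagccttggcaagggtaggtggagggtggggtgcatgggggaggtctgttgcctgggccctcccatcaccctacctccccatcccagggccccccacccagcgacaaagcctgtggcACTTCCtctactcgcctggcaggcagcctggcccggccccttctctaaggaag
Both strands were searched for CAGGAA. The second motif was GGAAGT, which reads ACTTCC where its other strand is printed, as for Eng. The first and second motifs share the ETS core and can overlap each other. The third motif searched was AGATAA, of the kind bound by GATA factors. In the 250 bases before the start, CAGGAA occurred in 4 of the 6 genes (Clec4g, Stab1, Stab2 and Tek) and in 25.7% of 32851 promoters. GGAAGT occurred in Eng and Kdr (2 of 6) and in 19.7% of promoters, and AGATAA occurred in 0 of the 6 and in 9.99% of promoters. The motifs did not follow the patterns across animals: Kdr, closest to Stab1, held GGAAGT like Eng, and Stab2, which varied with Eng, held CAGGAA like Stab1. A match is a run of letters, not a measured binding site.

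The design's main question is whether the transgene changed liver transcripts, and for the endothelial markers no difference between genotypes passed the test. In a limma model of all 7 arrays that held genotype and sex, 0 of 10 markers passed an adjusted p of 0.05, against 0% (0 of 22218) of all features, so the background of calls is itself empty. At an unadjusted p under 0.05 there were 0 of 10 markers, against 6.91% of all features. The 10 differences were 6 positive and 4 negative with a median of 0.01, beside a median of -0.01 over all features, of which 48.2% were positive. Their median size was 0.0739, against 0.0935 over all features, and the adjusted p ran from 0.838 to 0.998. WT and transgenic animals overlapped in all 10 markers, while 6.01% of all features did not overlap. In whole liver, fewer endothelial cells and less RNA per cell cannot be told apart.

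Zfp90 itself checked the labels. Its ratios were -0.15, -0.29 and -0.11 in WT males 2, 3 and 4, 0.58 and 0.45 in transgenic males 1 and 2, 0.34 in the transgenic female. The array labelled WT female read 0.37. The difference was 0.48 ± 0.15 (SE; 1.40-fold, limma adjusted p = 0.678). Zfp90 on the array labelled WT female read as in the transgenic animals, so values that turn without that array are also given without it. Leaving out either female leaves the comparison of genotypes to the 5 males, and the interaction of genotype and sex then has no estimate.

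Among the scavenger receptors and lectins, Stab1 differed least. It read 0.11 on the array labelled WT female, -0.17, -0.12 and 0.28 in the WT males, 0.08 in the transgenic female and 0.003 and 0.02 in the transgenic males. All 3 transgenic animals lay inside the WT range, and the fold was 1.002 with a 95% interval from 0.817 to 1.23 (adjusted p = 0.998). Stab2, the main hyaluronan-clearing receptor of these cells, read 0.08 on the array labelled WT female, -0.27, 0.29 and -0.28 in the WT males, 0.31 in the transgenic female and 0.18 and -0.04 in the transgenic males. Its difference was 0.17 ± 0.16 (1.13-fold, adjusted p = 0.878), with WT male 3 nearly as high as the transgenic female. The pair of Stab2 probes did not move alike. They correlated at 0.492 over the 7 arrays, and their own differences were -0.06 ± 0.09 (adjusted p = 0.946) and 0.41 ± 0.24 (adjusted p = 0.777).

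Lyve1 had the widest gap between a single animal and the rest. It read -0.65 on the array labelled WT female, against 0.15, 0.24 and 0.23 in the WT males, 0.36 in the transgenic female and -0.06 and 0.43 in the transgenic males. Of the 7 arrays, 5 lay above 0, and the lowest value was that of the array labelled WT female. The difference was 0.28 ± 0.21 (1.21-fold, interval 0.859 to 1.72, adjusted p = 0.838). In the males alone, a fit without either female, it was -0.02 ± 0.16 (adjusted p = 0.999). Clec4g read 0.39 on the array labelled WT female, -0.74, -0.17 and 0.08 in the WT males, 0.08 in the transgenic female and -0.05 and -0.44 in the transgenic males. WT animals alone spanned 1.13, and the difference was -0.07 ± 0.21 (0.954-fold, interval 0.681 to 1.34, adjusted p = 0.986). In the males alone it was 0.03 ± 0.25 (adjusted p = 0.999).

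**Figure D1:**
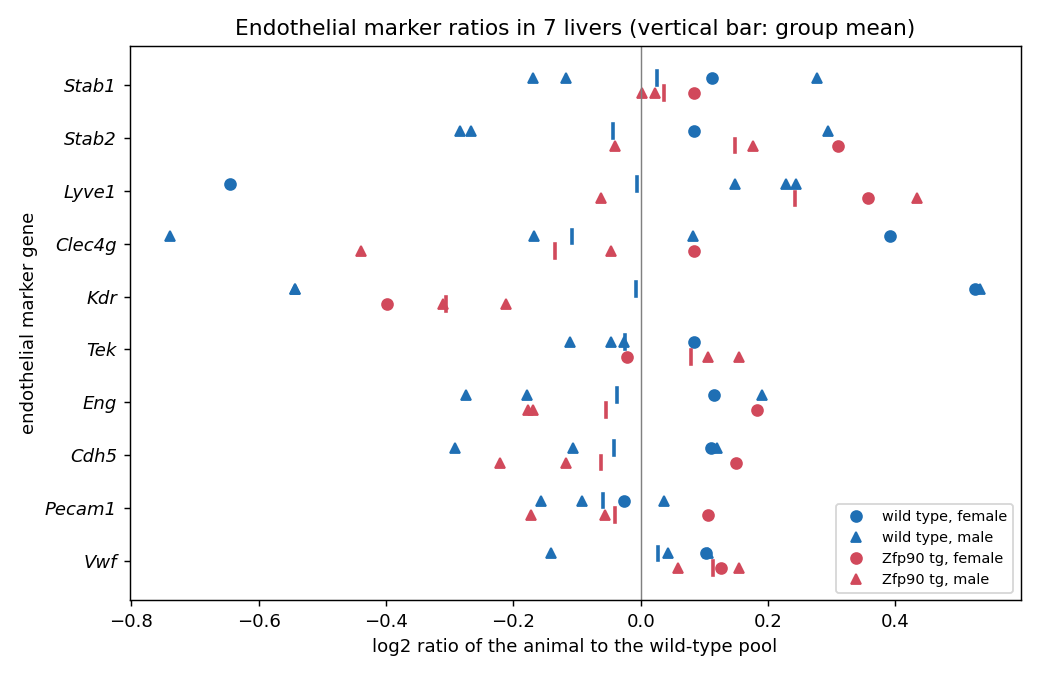
Log2 ratio to the WT pool (x axis) of the 10 endothelial markers (y axis) on each of 7 arrays, with circles for females, triangles for males, blue for wild type, red for Zfp90 tg and a vertical bar at each group mean. WT males 2 and 3 coincide for Kdr at -0.54, and for Kdr the transgenic animals lie between the WT extremes.

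Of the growth factor receptors, Kdr varied most of all 10 markers, with a standard deviation over the arrays above that of 95.5% of all features. The array labelled WT female read 0.53 and WT male 4 read 0.53, while WT males 2 and 3 both read -0.54. The transgenic female and males read -0.40, -0.31 and -0.21. WT animals thus lay at both extremes with the 3 transgenic animals between them, and the group SD was 0.62 in WT (n = 4) and 0.09 in transgenic animals (n = 3). The difference was -0.33 ± 0.30 (0.798-fold, interval 0.494 to 1.29, adjusted p = 0.878), and in the males alone it was -0.08 ± 0.33 (adjusted p = 0.999).

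Tek was the marker with the smallest spread. It read 0.08 on the array labelled WT female, -0.05, -0.11 and -0.03 in the WT males, -0.02 in the transgenic female and 0.10 and 0.15 in the transgenic males. The difference was 0.10 ± 0.10 (1.07-fold, adjusted p = 0.881). Within the males, Tek was the 1 marker of 10 whose genotypes did not overlap, against 22.6% of all features in that comparison. There it was 1.14-fold higher in transgenic males (0.19 ± 0.10, adjusted p = 0.850). Fitted in the males alone, 0 of 10 markers passed, against 0.0315% of all features (7 of 22218), and 0 had an unadjusted p under 0.05, against 6.96%.

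Eng read 0.11 on the array labelled WT female, -0.18, 0.19 and -0.27 in the WT males, 0.18 in the transgenic female and -0.17 and -0.18 in the transgenic males. High and low animals were found in both genotypes, and the difference was -0.04 ± 0.13 (0.972-fold, adjusted p = 0.986). The junction genes had a similar order of animals. Cdh5 read 0.11, -0.11, 0.12 and -0.29 in the array labelled WT female and WT males 2, 3 and 4, and 0.15, -0.12 and -0.22 in the transgenic female and males. Pecam1 read -0.03, -0.09, 0.04 and -0.16 in the same WT animals and 0.11, -0.06 and -0.17 in the transgenic animals. In both genes the transgenic female was highest, and WT male 4 or transgenic male 2 lowest. Their differences were -0.04 ± 0.12 (adjusted p = 0.985) for Cdh5 and 0.01 ± 0.10 (adjusted p = 0.998) for Pecam1, which was -0.04 ± 0.11 in the males alone (adjusted p = 0.993). Vwf read 0.10, -0.14, 0.04 and 0.11 in WT and 0.13, 0.06 and 0.15 in transgenic animals, with WT male 2 the only animal below the pool. Its difference was 0.08 ± 0.10 (1.06-fold, adjusted p = 0.923).

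The 95% intervals of all 10 differences included 0. For 8 markers the whole interval lay within a 1.5-fold change in either direction, and the exceptions were Lyve1 and Kdr. For those 2 genes, changes past 1.5-fold were not excluded by the number of arrays. Stab2 was counted by the mean of its 2 probes, which taken singly differed by -0.06 ± 0.09 and 0.41 ± 0.24. For the second of these probes taken alone, a change past 1.5-fold was not excluded. In all 10 markers the range among the 4 WT animals was larger than the difference between genotypes. Neither this count nor that of intervals within 1.5-fold was made over all features, so neither is a result about these markers.

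**Figure D2:**
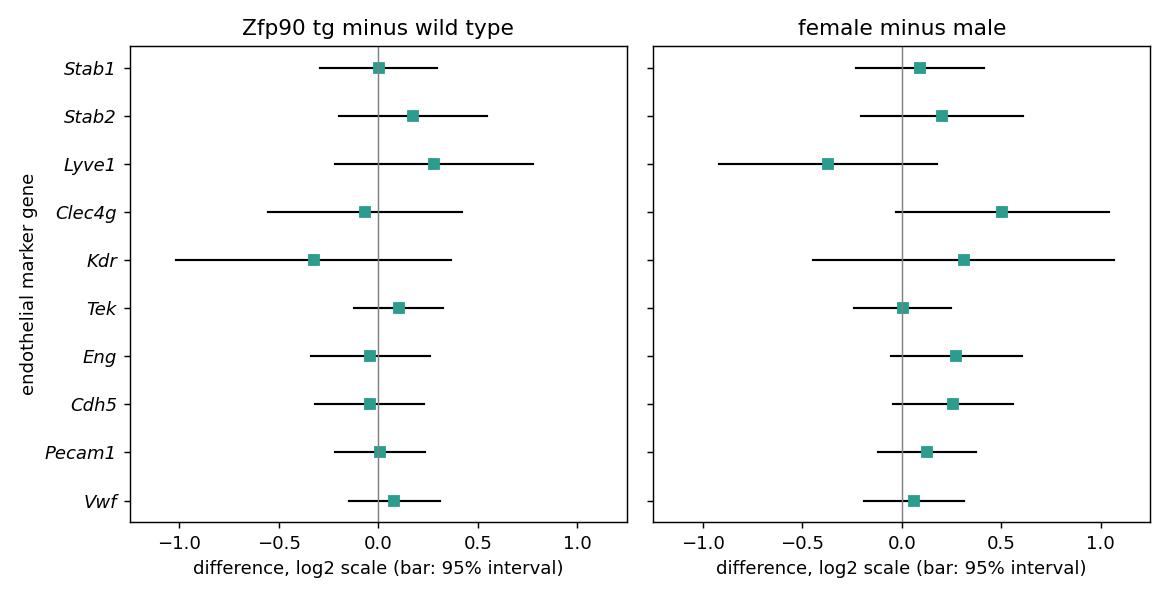
Differences of the 10 markers on the log2 scale (x axis), Zfp90 tg minus wild type at left and female minus male at right, from the limma model with both terms. Squares are estimates and bars 95% intervals, and every interval includes 0.

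Sex is the other factor the labels give, with 2 females and 5 males. Of the 10 markers, 9 read higher in females and Lyve1 lower, with a median difference of 0.17 beside 0.01 over all features, of which 52.3% were positive. Again 0 of 10 passed, against 0.351% of all features, and 0 had an unadjusted p under 0.05, against 9.23%, so the direction of single markers is not settled. Clec4g had the smallest adjusted p, with a mean of 0.24 in females and -0.26 in males (difference 0.51 ± 0.23, 1.42-fold, adjusted p = 0.578). Cdh5 (0.26 ± 0.13) and Eng (0.27 ± 0.14) followed, with adjusted p of 0.633 and 0.641. Kdr differed by 0.31 ± 0.32 and Lyve1 by -0.37 ± 0.23 (adjusted p = 0.831 and 0.724). Without the array labelled WT female these turned to -0.14 for Kdr and 0.17 for Lyve1, Tek turned from 0.0047 to -0.15, and 8 of 10 read higher in females. Clec4g was then 0.33 (adjusted p = 0.733).

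Whether the transgene acted differently in the sexes was asked in a model with an interaction, which had 1 female per genotype and took its spread from the males. None of the 10 passed, against 0.072% of all features (16 of 22218). At an unadjusted p under 0.05 there was 1 of 10, against 8.42% of all features. That marker was Lyve1, whose genotype difference was 1.003 between the 2 females and -0.02 in the males (interaction 1.02 ± 0.30, unadjusted p = 0.012, adjusted p = 0.427). Kdr had the next largest interaction in size at -0.85 ± 0.61 (adjusted p = 0.738). Both rest on 1 female of each genotype, including the array labelled WT female, and the parts of the 2 females cannot be told apart.

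The markers did not rise and fall as 1 block across the animals. Over the 7 arrays the 45 pairs had a median Pearson r of 0.0487, and 20 pairs were below 0 (44.4%, beside 50.0% of all pairs of named genes). Pairs above 0.8 numbered 6 (13.3%, beside 4.47% of all pairs). The correlations are descriptions over 7 arrays that share the reference pool, the authors' processing and any array-wide shift. The closest pairs were Cdh5 with Eng (0.968), Pecam1 with Cdh5 (0.923) and Pecam1 with Eng (0.891). With each array left out in turn these pairs stayed between 0.860 and 0.981. The scavenger receptor Stab2 lay with these 3, at 0.820 with Pecam1 (0.764 to 0.888 with an array left out), 0.810 with Eng (0.733 to 0.943) and 0.777 with Cdh5 (0.659 to 0.855). Stab1 with Kdr reached 0.840 (0.718 to 0.918), Stab1 with Clec4g 0.700 (0.487 to 0.796), Stab1 with Vwf 0.685 (0.451 to 0.822) and Kdr with Clec4g 0.668 (0.470 to 0.773).

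**Figure D3:**
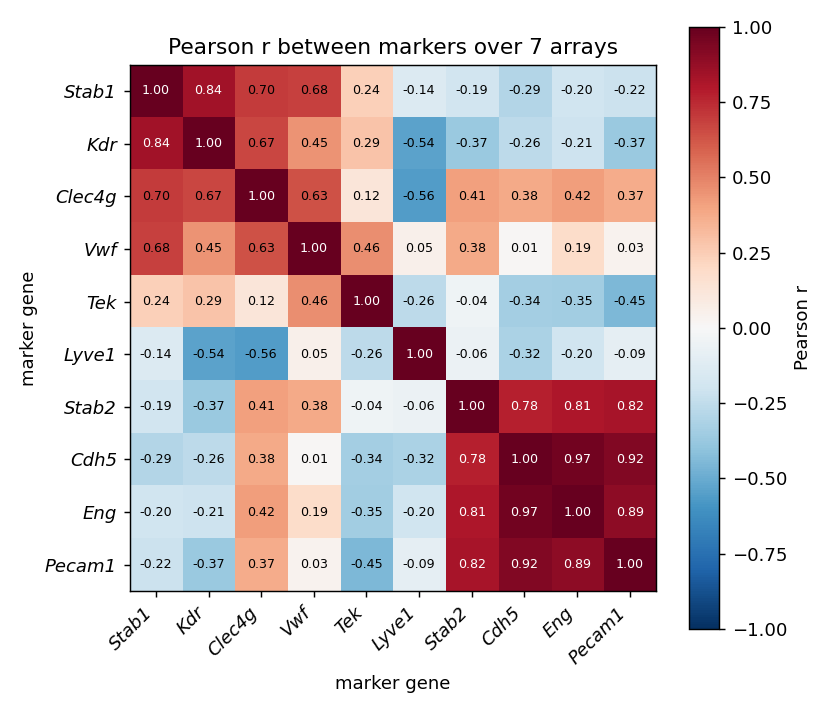
Pearson correlation over 7 arrays between each pair of the 10 markers (both axes), coloured from -1 (blue) to 1 (red) with the value printed. Cdh5, Eng and Pecam1 form the tightest set (0.891 to 0.968) with Stab2 beside it (0.777 to 0.820), and Stab1, Kdr and Clec4g form a looser one (0.668 to 0.840).

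Cdh5, Eng and Pecam1 were taken as one set of 3 markers and Stab1, Kdr and Clec4g as another, after their values were seen. Stab2, whose probes did not move alike, was left out of the sets. Vwf was left out too, though its r was 0.685 with Stab1, 0.635 with Clec4g and 0.447 with Kdr. The mean patterns of the sets so chosen had an r of -0.01 with each other. Mean ratios of Stab1, Kdr and Clec4g were 0.34 on the array labelled WT female, -0.48, -0.28 and 0.30 in the WT males, and -0.08, -0.12 and -0.21 in the transgenic animals. WT male 4 and the array labelled WT female were high, WT males 2 and 3 low, and the transgenic animals lay between. Mean ratios of Cdh5, Eng and Pecam1 were 0.07, -0.13, 0.12 and -0.24 in WT and 0.15, -0.11 and -0.19 in transgenic animals. Here WT males 3 and 4 lay far apart in the opposite order, and the transgenic female was highest.

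The pattern of Stab1, Kdr and Clec4g was shared by few genes overall and by several other endothelial genes. Of 16465 other named genes, 31 (0.188%) followed it at r above 0.9. Among 140 genes of 8 endothelial lists, 7 (5%) did so: the mannose receptor Mrc1 (0.959), the Fc receptor Fcgr2b (0.975), the endocytic recycling protein Ehd3 (0.956), the vascular phosphatase Ptprb (0.954), the junction protein Esam (0.926), the lectin-like Clec14a (0.964) and the membrane protein Tm4sf1 (0.928). Mrc1 and Fcgr2b are scavenging receptors of sinusoidal endothelium. Mrc1 read 0.86 on the array labelled WT female, -0.97, -0.57 and 0.44 in the WT males and 0.04, -0.28 and -0.07 in the transgenic animals. Fcgr2b read 0.61, -0.87, -0.49 and 0.38 in WT and -0.34, -0.52 and -0.47 in transgenic animals. Both showed the WT extremes of Kdr, with larger swings. Genotype differences of Mrc1 (-0.11 ± 0.35, adjusted p = 0.986) and Fcgr2b (-0.40 ± 0.30, adjusted p = 0.833) did not pass.

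With each array left out in turn, 7 to 14 of the 140 endothelial genes followed this pattern, and 0.219% to 1.35% of all named genes did. The highest values came without WT male 4 (14 of 140 and 1.35%), followed for all genes by the set without WT male 2 (9 of 140 and 1.09%). Without the array labelled WT female the counts were 8 of 140 (5.71%) and 0.219%. Of 35 genes typical of other organs, such as lens, retina, kidney and brain, listed after the values were seen, 0 followed it. Mrc1, Fcgr2b and Stab1 are known in macrophages too, so the Kupffer cell and macrophage list is given beside them. Of its 12 genes 11 were measured, with median ratios of 0.82, -0.68, -0.67 and -0.13 in WT and 0.43, 0.33 and 0.19 in transgenic animals. Of these 11, 0 followed the pattern at r above 0.9, with a highest r of 0.855 and a median of 0.586. That median was above those of the 140 endothelial genes (0.298) and of all other named genes (-0.058). Ratios to a pool give no absolute level, so how far either cell type's markers lay above background is unknown. The part of macrophages in the pattern was not tested.

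The pattern of Cdh5, Eng and Pecam1 was common on these arrays. It was followed at r above 0.9 by 898 named genes (5.45%) and by 7 of the 140 endothelial genes (5%), a share near that of all genes. Of the 35 genes typical of other organs, 4 (11.4%) followed it: the lens crystallin Crybb1, the retinal arrestin Sag, the kidney water channel Aqp2 and the myelin protein Mog. Aqp2 read 0.21, -0.10, 0.19 and -0.16 in WT and 0.24, -0.06 and -0.11 in transgenic animals, in sizes like those of Eng. Without the array labelled WT female, 11.1% of named genes followed it, with 12 of the 140 and 9 of the 35. Without transgenic male 1 the counts were 7.88%, 12 and 6. The median r was 0.242 over the 35 genes (lowest -0.781), 0.232 over the 140 and 0.062 over all other named genes. As the 35 were listed after the values were seen, their share is a description and no test. Why some genes of other organs share the pattern was not tested, and signal over background was not available here for any of the probes.

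**Figure D4:**
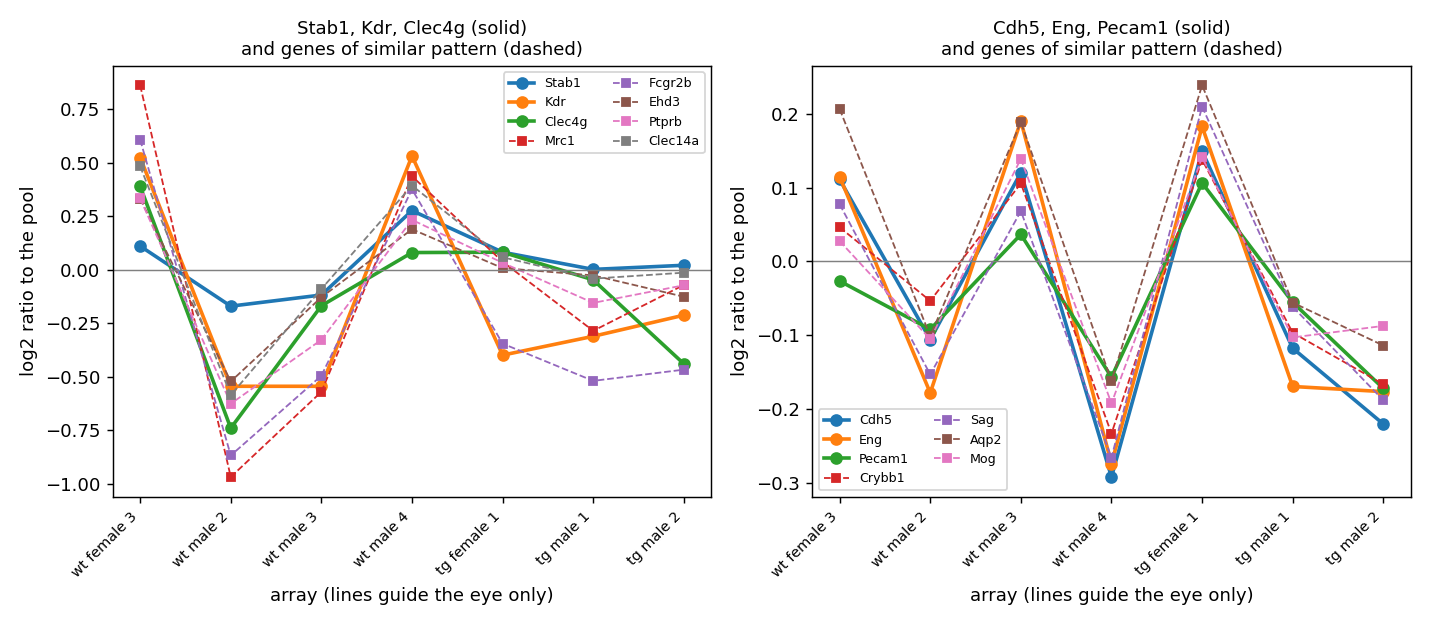
Log2 ratios to the pool (y axis) on each of 7 arrays (x axis, labelled by genotype, sex and number), for Stab1, Kdr and Clec4g with 5 endothelial genes of like pattern (left) and for Cdh5, Eng and Pecam1 with 4 genes of other organs (right). At left the array labelled WT female and WT male 4 are high and WT males 2 and 3 low, and at right the transgenic female is high and WT male 4 low, on a narrower scale.

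Taking the mean of all 10 markers as a single pattern, the 8 named genes most like it over the 7 arrays were Icam2 (r = 0.967), Nemp1 (0.963), Glra3 (0.958), Tmcc2 (0.957), Urad (0.957), Cavin2 (0.943), Prr5l (0.943) and Cd93 (0.935). Icam2 and Cd93 are endothelial surface proteins, and Cavin2 is a caveolar coat protein. Cavin2 moved most, from -1.02 in WT male 2 to 0.61 on the array labelled WT female. By Spearman's rho 1 of these 8 stayed among the first 8. The mean of the 10 markers itself ran from -0.21 in WT male 2, where 1 of 10 lay above 0, to 0.10 in the transgenic female, where 8 of 10 did. On the array labelled WT female 8 of 10 also lay above 0, with a mean of 0.09.

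Wider endothelial biology gave the same count of calls. Over the 8 lists, 140 genes other than the 10 markers were measured, with 64 positive and 76 negative differences, a median of -0.01 and 0 calls by limma (adjusted p under 0.05), and 9 genes (6.43%) had an unadjusted p under 0.05, beside 6.91% of all features. Genotypes did not overlap in 6 of the 140 (4.29%, beside 6.01% of all features). In the males alone 0 passed. Between the sexes 104 were positive (74.3%, beside 52.3% of all features) with a median of 0.11, and 1 passed (0.714%, beside 0.351%). It was Cd36, the fatty acid transporter also found in hepatocytes (2.04 ± 0.25, adjusted p = 0.0221). Its call was lost without the array labelled WT female (adjusted p = 0.188), WT male 2 (0.0729), the transgenic female (0.0660) or transgenic male 1 (0.0658), after quantile normalization (0.161) and without the genotype term (0.337).

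Of receptors and scavenger proteins of these cells, 13 were measured, with 6 positive and 7 negative genotype differences and a median of -0.04. Cd36 had the smallest p (1.60 ± 0.22, adjusted p = 0.471), and the HDL receptor Scarb1 (-0.51 ± 0.18, adjusted p = 0.718) and the protease Ctsl (0.26 ± 0.12, adjusted p = 0.725) followed. Each of these genes overlapped between genotypes. Cd36 read 1.18 on the array labelled WT female, -0.86, -1.33 and -0.41 in the WT males, and 2.77, 0.49 and 0.996 in the transgenic female and males. In the VEGF and angiopoietin pathway, which signals through Kdr and Tek, 11 of 18 were positive with a median of 0.02. Flt1, a VEGF receptor that competes with Kdr for the ligand, read -0.01, -0.30, 0.07 and -0.08 in WT and 0.57, 0.46 and 0.10 in transgenic animals. Its genotypes did not overlap, and the difference was 0.44 ± 0.14 (1.36-fold, adjusted p = 0.677). Esm1 (0.19 ± 0.10) and Tie1 (0.18 ± 0.11), the partner receptor of Tek, had adjusted p of 0.760 and 0.789.

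In the BMP and TGF-beta branch in which Eng acts, 7 of 20 were positive and 13 negative, with a median of -0.07. The shared signal transducer Smad4 read 0.20, 0.09, -0.13 and 0.12 in WT and -0.27, -0.28 and -0.31 in transgenic animals. All 3 transgenic animals lay below all 4 WT animals (-0.37 ± 0.10, 0.775-fold, adjusted p = 0.665). The co-receptor Tgfbr3 (betaglycan), a relative of endoglin, also did not overlap (-0.46 ± 0.14, adjusted p = 0.677), and the BMP target Id2 differed by -0.49 ± 0.24 (adjusted p = 0.742). Junction and adhesion genes, the partners of Cdh5 and Pecam1, were 8 positive and 9 negative of 17 with a median of -0.04. Their smallest p-values belonged to Jam2 (-0.38 ± 0.17, adjusted p = 0.728), Vcam1 (0.51 ± 0.29, adjusted p = 0.764) and Cldn5 (-0.13 ± 0.08, adjusted p = 0.788).

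Endothelial transcription factors were 12 positive and 10 negative of 22, with a median of 0.02. Foxc1 did not overlap between genotypes (0.49 ± 0.14, 1.41-fold, adjusted p = 0.665), and Zeb2 (0.24 ± 0.16) and Lyl1 (0.16 ± 0.12) had adjusted p of 0.804 and 0.838. Of 13 Notch pathway genes 4 were positive, with a median of -0.04. Jag2 (0.21 ± 0.14, adjusted p = 0.795), Heyl (0.18 ± 0.13, adjusted p = 0.820) and Hes1 (-0.13 ± 0.12, adjusted p = 0.877) had the smallest p. Of 8 angiocrine factors, signals by which endothelium instructs hepatocytes, 1 was positive and the median was -0.06. Dkk3 (-0.14 ± 0.13), Bmp2 (-0.19 ± 0.17) and Bmp6 (-0.08 ± 0.09) had adjusted p between 0.876 and 0.915. Of 32 other surface and capillary genes 15 were positive, with a median of -0.02. Ly6c1 (0.75 ± 0.15, adjusted p = 0.508), Procr (0.47 ± 0.12, adjusted p = 0.653) and Emcn (-0.42 ± 0.15, adjusted p = 0.718) had the smallest p.

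Marker lists of the other cells in a liver sample had 0 calls between genotypes in 9 of 9 lists. The Kupffer cell and macrophage list had the largest median, 0.46 with 9 of 11 positive. Its smallest p-values were those of Cd163 (1.16 ± 0.19, adjusted p = 0.475), Marco (1.12 ± 0.33, adjusted p = 0.677) and C1qa (0.90 ± 0.27, adjusted p = 0.677), beside the median of 0.01 for the 10 endothelial markers. Lymphatic endothelium, which shares Lyve1, had a median of 0.04 over 4 genes, led by Pdpn (0.22 ± 0.12, adjusted p = 0.755). For platelets and megakaryocytes, which share Vwf and Pecam1, the median was -0.01 (2 of 7 positive), led by Ppbp (-0.40 ± 0.24, adjusted p = 0.785). For stellate cells the median was -0.0014 (5 of 10 positive). Pdgfrb (0.38 ± 0.11, adjusted p = 0.665) and Hand2 (0.31 ± 0.10, adjusted p = 0.678) did not overlap between genotypes, beside 6.01% of all features. Reln went the other way and overlapped (-0.32 ± 0.12, adjusted p = 0.718). Smooth muscle genes had a median of 0.21 (4 of 4 positive), hepatocyte genes 0.09 (7 of 10), red blood cell genes 0.22 (4 of 4), lymphocyte genes 0.02 (4 of 6) and neutrophil genes 0.02 (3 of 5). Among hepatocyte genes Cps1 (0.59 ± 0.11, adjusted p = 0.475) and Ass1 (0.60 ± 0.15, adjusted p = 0.645) did not overlap between genotypes. Serpina1a was lower and overlapped (-0.28 ± 0.12, adjusted p = 0.722). Cd163 and the smooth muscle gene Tagln (0.16 ± 0.09, adjusted p = 0.761) also did not overlap. The part of these cells in the endothelial values was not tested.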

How the data were processed

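Per the labels, liver RNA (spin columns, DNase) was amplified and labelled with an aminoallyl kit. The deposited table, made by the authors, holds 1 log10 ratio per probe and animal, read as animal (Cy5) over pool (Cy3). Background correction, normalization and the handling of dyes are not given in the sources used here. Direction was checked with the Y-linked Kdm5d, at -3.22 and -2.54 (log2) in females and 0.14 to 0.66 in males. Centring is unknown: column medians ran from -0.0042 to 0.0093 (log10), and values end at -2 and 2. Over all probes, 3 pairs of arrays correlated below -0.3, namely the transgenic female with WT male 4 (-0.497), and WT males 3 (-0.363) and 2 (-0.307) with the array labelled WT female. The dyes in the labels settle the direction, which was kept.

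Ratios were multiplied by 3.32 to log2. Platform annotation gave 17824 probes 1 symbol, 50 several and 5700 none. Of the symbols 17724 matched RefSeq's gene table (GRCm38.p6) by gene number, with 0 updates. Probes of a gene were averaged (1150 genes had more than 1), giving 22218 features with 0 missing values. Differences came from limma 3.58.1 (R 4.3.3; lmFit, eBayes) with genotype and sex over 7 arrays, Benjamini-Hochberg adjusted over all features at 0.05. Nothing beyond littermates is said of how the animals relate, and p-values measure the spread between these samples. On data simulated for the comparison of genotypes (22218 features) the fit called 38 of 100 planted 1.5-fold changes and 89 of 100 planted 3-fold changes, and 10 of its 137 calls were false. The simulated noise was independent between features, whereas features of the real arrays share patterns, so these counts may not hold for the real arrays.

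The markers and gene lists were chosen with earlier results of these data known. Named were every marker, up to 3 genes per list with the smallest genotype p, and the 8 genes most like the markers' mean. The sets of 3 markers, their like genes and the other-organ genes were chosen after values were seen, as were the correlations with each array left out. Alternatives were centring, quantile normalization, dropping the sex or genotype term, males alone, robust variances, single probes, named genes alone, each animal left out and Spearman's rho.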

Additional observations from a re-analysis of the deposited data

Results flagged for a closer look

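Among the WT groups of the 10 markers, only that of Lyve1 held an array far from the others of its group. The array labelled WT female read -0.65, and the gap to the next WT animal took up 0.892 of the group's range, above Dixon's 95% critical value for 4 samples. WT groups were tested for 10 genes, and chance alone marks about 1 in 20 such groups. The array labelled WT female is the one on which Zfp90 read 0.37, as in the transgenic animals. Transgenic groups were not tested in this way. In Eng the transgenic female (0.18) lay far from transgenic males 1 and 2 (-0.17 and -0.18).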

How the results depend on the processing

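The count of 0 markers called held under every alternative run for genotype and sex. Adjusted p of the markers over the alternatives ran from 0.221 to 0.9998 for genotype, 0.154 to 0.9999 for sex and 0.410 to 0.990 for the interaction. Counting each distinct fit once and leaving out settings that cannot move a difference, 78 of 91 marker values for genotype kept their direction and 13 turned, of 101 for sex 95 and 6, and of 21 for the interaction 20 and 1. Features called for genotype, 0, were 7 in the males alone, which is also the fit without either female, and 0 to 7 with each animal left out. For sex the count was 78, 47 after quantile normalization and 36 to 254 with each animal left out: 36 without the array labelled WT female, 39 without WT male 2, 48 without WT male 4, 45 without transgenic male 2 and 254 without the transgenic female. For the interaction it was 16, 3 after quantile normalization and 7 among named genes alone. In the males alone Lyve1 (-0.021), Pecam1 (-0.043) and Clec4g (0.033) turned. Tek between the sexes turned after centring (-0.0087), and the Stab2 interaction after quantile normalization (-0.043). With each animal left out, genotype differences ran from -0.055 to 0.094 for Stab1, -0.021 to 0.54 for Lyve1, -0.043 to 0.062 for Pecam1, -0.10 to 0.033 for Cdh5, -0.24 to 0.038 for Clec4g and -0.10 to 0.058 for Eng. They kept their sign but moved over 1.5 times for Stab2 (0.11 to 0.30, highest without WT male 3), Kdr (-0.48 to -0.076, smallest without either female), Tek (0.057 without transgenic male 2 to 0.19 without either female) and Vwf (0.029 without WT male 2 to 0.11). Sex differences ran from -0.85 to 0.17 for Lyve1, -0.14 to 0.71 for Kdr and -0.15 to 0.14 for Tek. Except where the construction shows it (fewer animals or features), the cause was not tested. Of the 8 genes most like the markers, 1 was shared with Spearman's rho and 7 after centring. No paired analysis was possible because the groups share only 1 replicate number. Signal over background is unknown for all probes, and 7 arrays limit the precision.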
